A study of Mus musculus with 50 samples.

Results

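Terminal end buds (TEBs) were compared with ducts in the mammary glands of DN-Clim mice at 4 weeks of age, with 3 arrays of laser-captured TEB and 3 arrays of laser-captured duct. These 6 arrays were picked by their labelled genotype, structure and age, out of 50 arrays in the series and 42 arrays of captured tissue. DN-Clim mice express dominant-negative Clim from the keratin 14 promoter, so the transgene is driven in basal epithelial cells and not across the whole epithelium that was captured. All mice were on the CB6F1 background. TEBs and ducts were cut by laser from stained sections of the fourth and ninth glands, keeping stroma and fat to a minimum. WT mice of the same background gave 3 TEB and 3 duct arrays at 4 weeks. DN-Clim TEBs and ducts were also captured at 6 weeks (2 arrays of each), 8 weeks (3 of each) and 10 weeks (3 of each), and basal and luminal cells were sorted from 10-week DN-Clim glands (2 arrays of each). Littermates were used within each age, and litter and age therefore cannot be told apart. The labels do not say whether a TEB and a duct array of the same number came from 1 mouse.

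The pubertal mammary tree grows from TEBs, bulbs at the tips of the ducts with an outer layer of cap cells over a mass of body cells. The duct left behind has an inner luminal layer, which holds hormone-sensing and secretory-lineage cells, and an outer layer of contractile myoepithelial cells. Clims (Ldb1 and Ldb2) have no enzymatic activity and bring LIM-domain factors such as Lmo4 together with DNA-bound partners. The dominant-negative form competes for the LIM-domain partners.

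Expression was read as intensity on Affymetrix Mouse Gene 1.0 ST arrays, and differences were taken on a log2 scale, TEB minus duct, so that 1 means 2-fold higher in the TEB. Genes were called at an adjusted p under 0.05 in limma, fitted to the 12 arrays of 4 weeks. Among 13362 genes, 701 were called (5.25%), 297 higher in DN-Clim TEB (2.22%) and 404 lower (3.02%). The 3 TEB and 3 duct intensities did not overlap for 699 of them, against 24% of all genes. The calls rest on these same intensities, so this adds no support to them. TEB and duct arrays of the same replicate number deviated together in these data. With that number as a block 950 genes (7.11%) were higher and 1659 (12.4%) lower, the 701 included. Counts of list members with the block are to be read beside these shares of all genes. The median over all genes was -0.05. When the arrays were brought to a common scale, the split turned to 373 higher and 253 lower (quantile), 408 and 237 (common median) or 353 and 214 (common mean and variance of each array, a scaling the study's methods name without saying whether by array or by gene), so the larger number of lower genes depends on the scaling. The count fell to 69 without duct replicate 2, 115 without TEB replicate 3, 447 without TEB replicate 2 and 467 without TEB replicate 1. At the threshold, Etv5 (adjusted p 0.0497) was just inside and Chsy3, at a log2 difference of 1.13, just outside.

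The labelled structures held epithelium with both layers. The luminal keratins Krt8 (at least 7398 on every array) and Krt18 (at least 6008) and the myoepithelial actin Acta2 (at least 5634) were bright in TEB and duct. Markers of fat, matrix, vessels and blood cells were also present, and their values are given with the cell type lists. In bulk tissue, fewer cells of a type and less RNA per cell cannot be told apart.

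The 12 largest increases in the TEB ran from 1.17 to 2.52. Serpinb11, an intracellular serpin, read 359, 309 and 352 in the 3 TEB arrays (replicates 1 to 3) and 119.9, 48.6 and 35.2 in the 3 duct arrays. Sprr1a, a cornified envelope precursor, read 3037, 2872 and 1582 in TEB against 906, 454 and 312 in duct. Every TEB array was above every duct array for both genes, with log2 differences of 2.52 (SE 0.37, adjusted p 0.00929) and 2.25 (SE 0.34, adjusted p 0.00967). Duct replicate 1 had the highest duct value of both, and all 3 duct values of Serpinb11 were under 200. Timp1, an inhibitor of metalloproteinases, read 1403, 1236 and 936 in TEB and 501, 269 and 305 in duct, 3.41-fold higher (log2 difference 1.77, SE 0.22, adjusted p 0.00653). Wnt5a, a ligand of mostly beta-catenin-independent Wnt signalling, read 1294, 1624 and 1942 against 693, 664 and 559, 2.51-fold higher (log2 difference 1.33, SE 0.21, adjusted p 0.00982). The lowest TEB value of Wnt5a was well clear of its highest duct value. Sema3b, a secreted semaphorin, read 1143, 911 and 1024 in TEB and 498, 305 and 346 in duct (log2 difference 1.45, SE 0.17, adjusted p 0.00653).

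Aim2, a sensor of cytosolic DNA, read 414, 354 and 375 in TEB and 158, 157 and 104 in duct (log2 difference 1.47, SE 0.19, adjusted p 0.00653). Vcan, the matrix proteoglycan versican, read 3445, 2618 and 3035 against 1951, 1029.8 and 887 (log2 difference 1.31, SE 0.23, adjusted p 0.0112). Its duct values were spread, with replicate 1 far above the other arrays and still under the lowest TEB value. Slc6a15, an amino acid transporter, was more variable, with 673, 486 and 409.8 in TEB and 377, 131 and 69.2 in duct (log2 difference 1.77, SE 0.43, adjusted p 0.0352). The other 4 of the 12 largest increases were Krt6a, a keratin of activated and companion-layer epithelium (1.24), the channel Trpm3 (1.23), the lipoprotein and reelin receptor Lrp8 (1.17) and the isoprenoid enzyme Idi1 (1.17), with adjusted p of 0.00997 to 0.031. A gene had to reach an intensity of 200 on at least 1 captured array, and for Serpinb11, Aim2 and Krt6a all 3 duct arrays were under it, as for 40 of the 297 higher genes. Such a log2 difference rests on dim values on 1 side. Of the 12, Timp1, Sema3b and Wnt5a kept the call under all 20 alternative settings run.

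**Figure D1:**
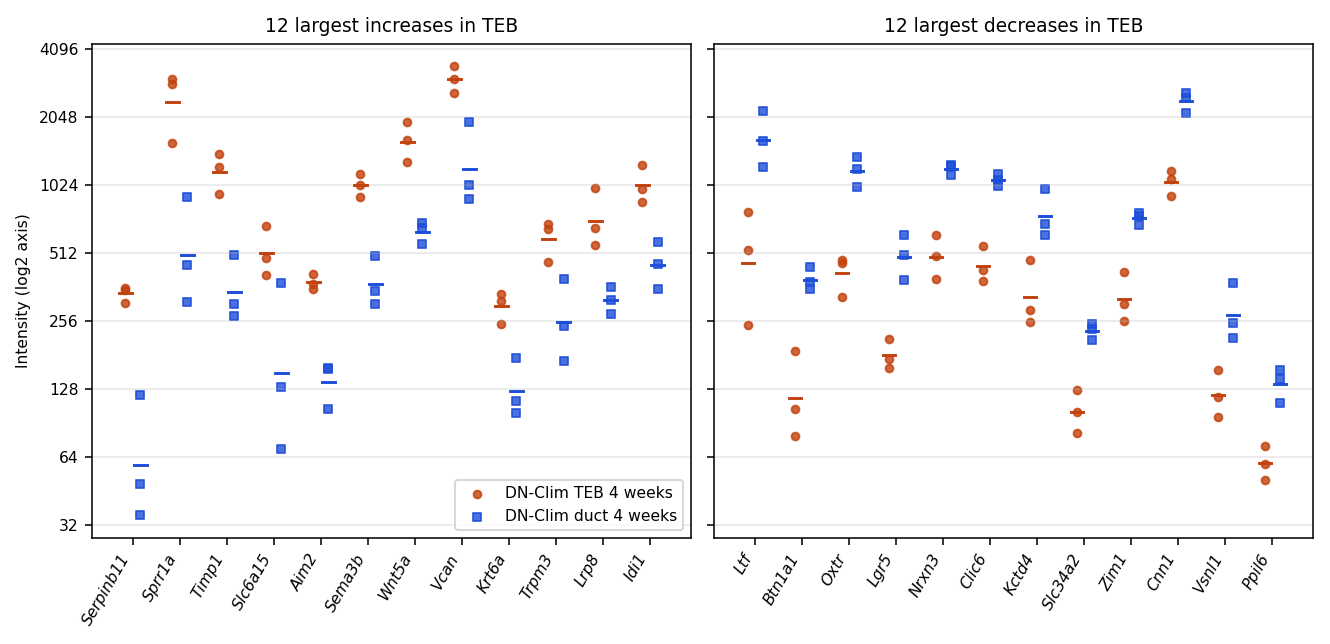
Intensity (log2 axis) of the 12 genes with the largest increases and the 12 with the largest decreases in DN-Clim TEB (circles) against duct (squares) at 4 weeks; each point is 1 of 3 arrays and each bar the mean of the logs. No gene has overlapping groups, which the choice of genes required, and Serpinb11, Slc6a15 and Ltf have the widest spread within a group.

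The 12 largest decreases ran from -1.17 to -1.81. Ltf, the milk and mucosal iron-binding protein lactoferrin, read 525, 774 and 245 in TEB and 2186, 1604 and 1232 in duct, 3.52-fold lower in TEB (log2 difference -1.81, SE 0.40, adjusted p 0.0238). Btn1a1, a coat protein of the milk fat globule, read 105, 188 and 79.4 against 379, 354 and 444 (log2 difference -1.75, SE 0.37, adjusted p 0.0202). TEB replicate 2 was the highest TEB array for both milk genes. Oxtr, the oxytocin receptor through which myoepithelial cells contract, read 462, 476 and 328 in TEB and 1203, 1008 and 1367 in duct, 2.84-fold lower (log2 difference -1.51, SE 0.22, adjusted p 0.00929). Lgr5, an R-spondin receptor and stem cell marker of several epithelia, read 213, 173 and 158 in TEB and 618, 387 and 501 in duct, 2.74-fold lower (log2 difference -1.45, SE 0.24, adjusted p 0.00997). The brightest TEB array for each of these receptors was far under the dimmest duct array. Clic6, a chloride channel family protein, read 429, 548 and 386 against 1018, 1148 and 1075 (log2 difference -1.26, SE 0.17, adjusted p 0.00714), and Cnn1, the smooth muscle calponin, 1091, 919 and 1182 against 2484, 2144 and 2620.2 (log2 difference -1.19, SE 0.22, adjusted p 0.0147). The rest were the synaptic adhesion gene Nrxn3 (-1.29), Kctd4 (-1.20), the phosphate transporter Slc34a2 (-1.19), the imprinted zinc finger gene Zim1 (-1.19), the calcium sensor Vsnl1 (-1.17) and Ppil6 (-1.17), with adjusted p of 0.00929 to 0.0253. All 3 TEB values of Btn1a1, Slc34a2 and Vsnl1 were under 200, as for 43 of the 404 lower genes, and Ppil6 was under 200 on all 6 arrays. Oxtr and Clic6 kept the call under all 20 alternative settings.

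Cell cycle genes rose in the TEB. Of 35 measured genes of DNA replication and S phase, 28 rose in the TEB, none fell, and all 35 had a difference above 0 (median 0.58, against -0.05 over all genes). Of 35 measured genes of mitosis, 27 rose and none fell, again with all 35 above 0 (median 0.71). Rrm2, the ribonucleotide reductase subunit that rises in S phase, read 1187, 1294 and 1729 in TEB and 657, 652 and 751 in duct (log2 difference 1.01, SE 0.13, adjusted p 0.00653). Ccne1, the cyclin of the G1 to S transition, read 726, 623 and 984 against 371, 342 and 434 (log2 difference 1.00, SE 0.17, adjusted p 0.00997), and its paralogue Ccne2 rose by 0.83. Mad2l1, of the spindle checkpoint, read 1229, 1283 and 1561 in TEB and 717, 794 and 861 in duct (log2 difference 0.78, SE 0.099, adjusted p 0.00653). TEB replicate 3 was the highest array for Rrm2, Ccne1 and Mad2l1.

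The 6 subunits of the replicative helicase, Mcm2 to Mcm7, rose by 0.43 (Mcm7) to 0.67 (Mcm3), and its loader Cdc6 by 0.81. Pcna, the polymerase clamp (0.45), and the licensing factor Cdt1 (0.32) were called with the block (adjusted p 0.000512 and 0.0118) but not without it. In mitosis the differences ran from 0.56 (Aspm) to 0.95 (Pbk, a mitotic kinase). The kinase genes Plk1 (0.92), Ttk (0.88), Bub1 (0.84) and Aurka (0.74) and the spindle genes Hmmr (0.92) and Tpx2 (0.87) rose. Top2a (0.67) was also called, but a second probe set of Top2a ran the other way. Mki67, the proliferation marker Ki-67, read 2440.3, 2756 and 3103 in TEB and 1394, 1744 and 2241 in duct, a difference of 0.65 (adjusted p 0.0511) that passed with the replicate block (adjusted p 0.000379). The duct arrays differed among themselves in the same genes, with a mean log2 intensity over the mitosis list of 8.71, 8.95 and 9.31, against 9.49, 9.71 and 9.95 in TEB. Replicate 3 was highest and replicate 1 lowest in both structures. With the block 33 S phase and 35 mitosis genes were called. The counts fell to 4 and 4 without duct replicate 2, to 6 and 6 without TEB replicate 3, to 11 mitosis genes without duct replicate 1 and 14 without TEB replicate 2, and to 1 and 0 when all 42 captured arrays set the spread.

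Many promoters of mitotic genes hold a CCAAT box, bound by NF-Y, and a cell cycle homology region, bound by the DREAM and B-Myb complexes. The promoter windows of RefSeq gene starts (GRCm38.p6, 250 bases before to 50 after the start) were searched on both strands for CCAAT and for TTTGAA, which can share at most 1 base. Of 26 windows of the called mitosis genes (24 of 27 genes matched), 19 held both (73.1%), against 4.85% of 13469 windows of the genes tested and 6.95% of all 32851 windows. The called S phase genes held both in 12.9% of 31 windows. Over all 297 genes higher in TEB (237 matched), 21.5% of windows held both, and over the 404 lower genes (304 matched) 3.9%. These shares count letters in a window and not bound sites. The windows below belong to the 3 called mitosis genes with both motifs, 1 start in the table and the largest differences, and are shown because these genes moved together; capitals mark CCAAT and TTTGAA on either strand.
Plk1 (chr7:122159185-122159484, plus strand): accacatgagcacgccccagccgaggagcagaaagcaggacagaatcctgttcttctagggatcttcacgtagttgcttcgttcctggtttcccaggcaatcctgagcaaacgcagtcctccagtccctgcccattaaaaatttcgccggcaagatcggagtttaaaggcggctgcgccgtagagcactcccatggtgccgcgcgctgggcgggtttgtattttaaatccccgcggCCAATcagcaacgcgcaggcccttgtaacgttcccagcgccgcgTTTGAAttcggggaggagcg
Hmmr (chr11:40733388-40733687, minus strand): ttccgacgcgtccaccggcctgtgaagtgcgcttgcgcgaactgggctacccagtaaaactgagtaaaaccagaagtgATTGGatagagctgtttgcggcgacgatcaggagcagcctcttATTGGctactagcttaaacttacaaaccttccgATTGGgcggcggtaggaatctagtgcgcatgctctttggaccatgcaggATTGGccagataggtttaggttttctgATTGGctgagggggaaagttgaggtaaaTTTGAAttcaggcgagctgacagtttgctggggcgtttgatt
Ttk (chr9:83834439-83834738, plus strand): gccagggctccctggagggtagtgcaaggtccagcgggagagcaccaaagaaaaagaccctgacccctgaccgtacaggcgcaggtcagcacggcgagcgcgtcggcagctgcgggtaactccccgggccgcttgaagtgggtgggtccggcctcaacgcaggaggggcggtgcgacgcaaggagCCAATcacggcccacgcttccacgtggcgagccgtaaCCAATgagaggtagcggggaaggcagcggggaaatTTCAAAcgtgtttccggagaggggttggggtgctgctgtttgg
Plk1 held 1 CCAAT and 1 TTTGAA, Hmmr 5 and 1, and Ttk 2 and 1.

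Genes of cholesterol synthesis rose in the TEB. Of 25 measured genes of sterol and fatty acid synthesis, 7 rose and none fell, with 23 above 0 (median 0.39). All 7 belong to the sterol branch, from Hmgcs1 (0.71), which makes HMG-CoA, through Pmvk (0.52), Idi1 and Fdps (0.82) of the isoprenoid steps to Sqle (0.67), Cyp51 (0.88) and Msmo1 (0.99). Idi1, the isopentenyl diphosphate isomerase, read 862, 983 and 1258 in TEB and 575, 353 and 459 in duct (log2 difference 1.17, SE 0.19, adjusted p 0.00997). Msmo1, a C-4 methyl sterol oxidase, read 747, 772 and 942 against 504, 356 and 383 (log2 difference 0.99, SE 0.19, adjusted p 0.0159). TEB replicate 3 was the highest array for both, and duct replicate 2 the lowest. In the fatty acid branch Fasn (0.13), Scd1 (0.04), Acaca (0.16), Elovl6 (0.43) and Scd2 (0.38) were not called. Some sterol genes were not called either, such as Mvd (0.52), Dhcr7 (0.48), Mvk (0.40) and Fdft1 (0.39). The calls alone therefore do not set the branches apart. With the replicate block 17 of the 25 genes were called, all higher, Elovl6 (adjusted p 0.0143) and Scd2 (0.00343) among them. The count was 4 without TEB replicate 2 and 1 without duct replicate 2 or without TEB replicate 3. The Idi1 promoter, shown for the largest difference of the list, held 2 CCAAT boxes (capitals), a motif found in 83.3% of 6 windows of the called genes of the list against 36.7% of windows of the genes tested.
Idi1 (chr13:8885356-8885655, plus strand): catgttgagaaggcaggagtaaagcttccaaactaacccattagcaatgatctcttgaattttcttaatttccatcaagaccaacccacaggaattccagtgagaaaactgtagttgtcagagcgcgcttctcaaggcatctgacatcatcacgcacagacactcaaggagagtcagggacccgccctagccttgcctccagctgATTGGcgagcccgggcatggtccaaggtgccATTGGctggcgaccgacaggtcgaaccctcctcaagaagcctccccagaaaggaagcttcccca

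Genes of the basal, myoepithelial layer were lower in the TEB. Of 23 measured markers 12 fell, none rose and 20 were below 0 (median -0.52). The fall included basal keratins and the contractile set. Krt5 read 1463, 1107 and 984 in TEB and 2811, 2141 and 1931 in duct (log2 difference -0.96, SE 0.16, adjusted p 0.00997). Krt14, whose promoter drives the transgene, read 1004, 1090.1 and 1050.2 against 2061, 1743 and 2051 (log2 difference -0.89, SE 0.16, adjusted p 0.0122). Every TEB array was under every duct array for both keratins, and the Krt14 values within each structure were close. Myh11, smooth muscle myosin, read 1164, 1012 and 1126 in TEB and 2082, 2146 and 2037 in duct (log2 difference -0.93, SE 0.15, adjusted p 0.00997). Tagln (-0.84), Lmod1 (-0.88), Mylk (-0.74), Myl9 (-0.65), Tpm2 (-0.51) and Acta2 (-0.43), of the same contractile apparatus, also fell, as did Snai2, a basal transcription factor (-0.52). Trp63, the p63 factor of basal cells, stood at -0.01 (adjusted p 0.977), and Vim at -0.08. Without duct replicate 2 the count of lower genes was 4 in place of 12, and with the block 15.

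The contractile genes are known targets of SRF, which binds the CArG box. That motif stood in 1 of 9 windows of the called basal genes, against 1.39% of windows of the genes tested, with 9 of the 12 genes matched. Over all 404 lower genes it stood in 1.46% of windows, and over the 297 higher genes in 2.55%. The window that held it, of the myosin light chain gene Myl9, is printed with the CArG box in capitals.
Myl9 (chr2:156775214-156775513, plus strand): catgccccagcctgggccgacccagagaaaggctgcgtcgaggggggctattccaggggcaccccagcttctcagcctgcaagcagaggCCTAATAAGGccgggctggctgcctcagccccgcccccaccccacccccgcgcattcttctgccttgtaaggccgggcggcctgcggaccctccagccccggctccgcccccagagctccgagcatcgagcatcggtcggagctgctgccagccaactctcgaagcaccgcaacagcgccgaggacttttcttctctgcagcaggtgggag

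Of 18 pan-luminal genes 1 fell, Elf5, the factor of the alveolar and luminal progenitor lineage (-0.64, adjusted p 0.036), and the list median was -0.11. Krt8 (0.17) and Krt18 (-0.14) were not called. With the block Elf5 (adjusted p 0.00132), Ehf (-0.51, 0.00623) and Gata3 (-0.27, 0.0261) were lower. Krt8, Krt7 (0.14), Cldn4 (0.24) and Cldn7 (0.24), all above 0, were not called with it. Elf5 was not called under any of the 3 common scalings, nor without any 1 of the 6 arrays other than TEB replicate 2. Among 11 measured hormone-sensing genes Cited4 fell (-0.83), and Esr1, the oestrogen receptor, stood at -0.34 (adjusted p 0.0516, and 0.00446 with the block) beside Pgr at -0.27. Cited4 also lost the call under these scalings and without duct replicate 2, duct replicate 3, TEB replicate 1 or TEB replicate 3. Of 15 milk, alveolar and luminal progenitor genes 4 fell, namely Ltf, Btn1a1, the receptor Kit of luminal progenitors (-0.63) and Plet1 (-0.49). Kit read 1148, 1202 and 942 in TEB and 1770.0, 1612 and 1671 in duct. The caseins were not called, with Csn1s1 at 1.22 (adjusted p 0.0287 with the block), Csn2 at 0.09 and Csn3 at 0.16, and neither was Glycam1 at -1.92, which read 121, 139.7 and 113 in TEB and 104, 6243 and 159.7 in duct, so that 1 duct array set its difference. None of the 4 was called without duct replicate 2 or without TEB replicate 3.

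Wnt signalling genes moved in both directions. Of 44 measured, 2 rose and 4 fell (median -0.09). The ligands that rose were Wnt5a and Wnt2, the latter from 185, 107 and 117 in duct to 268, 188 and 331 in TEB (log2 difference 0.95, SE 0.24, adjusted p 0.0389). Among receptors Lgr5 fell, while its relatives Lgr4 (-0.24) and Lgr6 (-0.06) and the 9 measured frizzled genes, at -0.34 to -0.02, were not called, though Fzd7 was with the block (adjusted p 0.00764). Secreted inhibitors that fell were Sfrp2, with 822, 864 and 855 in TEB and 1761, 1679 and 1691 in duct (log2 difference -1.01, SE 0.14, adjusted p 0.00776), and Dkk3 (-0.73, adjusted p 0.00997). The Sfrp2 values within each structure were close. The nuclear factor Tcf7l2 fell by 0.55 (adjusted p 0.0215), and the target gene Axin2 stood at 0.13 (adjusted p 0.712). With the block, 5 Wnt genes rose and 11 fell. Secreted inhibitors went both ways there, with Wif1 higher (0.56, adjusted p 0.0023) and Sfrp1 lower (-0.36, adjusted p 0.0169), neither called without it. Wnt2 lost the call without duct replicate 2, duct replicate 3, TEB replicate 1 or TEB replicate 3, and 2 Wnt genes were lower without duct replicate 2.

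In the FGF pathway 2 nuclear effectors and a coreceptor were higher and 1 receptor lower. Etv4, an ETS factor induced by FGF receptor signalling, read 794, 738 and 809 in TEB and 452, 383 and 449 in duct, 1.83-fold higher (log2 difference 0.87, SE 0.098, adjusted p 0.00653). It had the smallest p of all the genes in the lists and kept its call under all 20 alternative settings. Its relative Etv5 read 992, 1108 and 1276 against 849.7, 896 and 858 (log2 difference 0.37, SE 0.099, adjusted p 0.0497), and the heparan sulphate coreceptor Sdc1 rose by 0.58. Among receptors Fgfr1 fell, with 2471, 2581 and 2489.7 in TEB and 3164, 3253 and 3312 in duct (log2 difference -0.37, SE 0.067, adjusted p 0.0144). Fgfr2 read 3758, 2821 and 2621 in TEB and 3989, 2555 and 2603 in duct, groups that overlapped (log2 difference 0.02, SE 0.19, adjusted p 0.962). The ligands Fgf10 (0.37), Fgf7 (-0.44) and Fgf1 (-0.45) and the feedback inhibitors Spry4 (0.42) and Dusp6 (0.21) were not called. With the block 5 genes were higher, Spry4 (adjusted p 0.0106) and Dusp6 (0.0312) included, and 2 lower, Fgfr1 and Fgf1 (0.00172). Over all genes the block called 7.11% higher and 12.4% lower. Of the 20 measured genes 3 rose and 1 fell, and Etv4 was the 1 left without duct replicate 2 or without TEB replicate 3. Etv5 kept its call under 9 of the 20 alternatives.

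In the ErbB family 1 ligand rose and 1 receptor fell. The ligand Nrg1 (neuregulin 1) rose, with 621, 458 and 575 in TEB and 254, 236 and 367 in duct (log2 difference 0.96, SE 0.17, adjusted p 0.012). The receptor Erbb4 fell, with 279.6, 263 and 231 against 506, 433 and 446 (log2 difference -0.84, SE 0.14, adjusted p 0.00997). Erbb2 read 1053, 1119.5 and 1091 in TEB and 1300.4, 1381 and 1421 in duct, groups that did not overlap (log2 difference -0.33, adjusted p 0.0674, and 0.00308 with the block). Erbb3 read 2315, 2260.3 and 1731 and 2887, 2741 and 2711 (-0.41, adjusted p 0.12, and 0.00328 with the block), and Egfr stood at -0.25. Of 14 genes measured, 1 rose and 1 fell, or 2 and 4 with the block, beside 7.11% and 12.4% of all genes with it. Without duct replicate 2 or TEB replicate 3, Nrg1 was not called.

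In the group of Notch, Hedgehog, BMP and TGF-beta genes, 8 of 38 fell and none rose (median -0.16). The ligands that fell were Bmp4 (203, 185 and 204 in TEB and 384, 441 and 325 in duct, log2 difference -0.95, adjusted p 0.0251), Dll1 (-0.72), Tgfb3 (-0.59) and Inhbb (-0.51). Receptors that fell were Notch1 (-0.40) and the Hedgehog receptor Ptch1 (-0.30), and the latent TGF-beta binding proteins Ltbp1 (-0.47) and Ltbp4 (-0.46) fell with them. The count of lower genes was 4 to 5 under the common scalings, where 1 member was called higher, and 15 with the block. It was 3 without TEB replicate 1, 4 without duct replicate 1 or 3, and 1 without duct replicate 2 or TEB replicate 3. On the deposited scale the ligand Bmp7 ran the other way (0.57), called with the block (adjusted p 0.00785) but not without it. In the insulin-like growth factor axis 3 of 18 fell. Igfbp5, a binding protein linked to involution, read 1656, 1462 and 1466 in TEB and 2268, 2573 and 2823 in duct (log2 difference -0.74, SE 0.12, adjusted p 0.00982). Igf2 (-0.69, adjusted p 0.0174) and Igf1r (-0.33, adjusted p 0.0285) were the others, and Igf1 stood at -0.05. The count of lower genes was 1 without TEB replicate 1 or duct replicate 2 and 5 without duct replicate 3.

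Of 27 measured metalloproteinases and inhibitors, 6 fell and 1, Timp1, rose (median -0.18). Mmp3, stromelysin-1, read 369.9, 347 and 589.6 in TEB and 761, 866 and 1264 in duct (log2 difference -1.15, SE 0.25, adjusted p 0.0215). Mmp2, a gelatinase made largely by stroma, read 2902, 2305 and 3203 against 4733, 4427 and 4980.0 (log2 difference -0.76, SE 0.16, adjusted p 0.0217). Timp3 read 1391, 1911 and 1712 against 2501, 2968 and 2779.9 (log2 difference -0.73, SE 0.11, adjusted p 0.00967), opposite in direction to Timp1. Adam33 (-0.68), the membrane inhibitor Reck (-0.60) and Adamts15 (-0.53) fell, and Mmp14, the membrane-bound activator of Mmp2, stood at 0.35 (adjusted p 0.0536, and 0.0137 with the block). With the block 7 of these genes were higher and 8 lower, and the scalings gave 2 to 3 higher and 4 to 5 lower. The lower genes numbered 1 without duct replicate 2, 2 without TEB replicate 2 and 3 without duct replicate 1 or TEB replicate 3, and 4 were higher without duct replicate 1. Of 29 basement membrane and integrin genes, Lama1 rose (785, 712 and 762 in TEB and 526, 508 and 459 in duct, 0.60, adjusted p 0.0189). Itgb8 (-0.58), Col17a1 (-0.42), Lamb3 (-0.37) and Col4a6 (-0.33) fell, of which Col17a1 belongs to hemidesmosomes. The lower calls numbered 0 without duct replicate 2 or TEB replicate 3, 1 without duct replicate 1, TEB replicate 1 or TEB replicate 2, and 2 without duct replicate 3. Of 31 axon guidance and Eph genes, Sema3b rose and Ntn1, netrin 1, fell (-0.45, adjusted p 0.024), a call lost under the common scalings and without duct replicate 2, duct replicate 3 or TEB replicate 1.

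Both Clims were lower in the TEB, Ldb1 at the edge of the threshold. Ldb1 (Clim2) read 3346, 3438 and 3079 in TEB and 4107, 3933 and 3832 in duct (log2 difference -0.27, SE 0.071, adjusted p 0.0477). Ldb2 (Clim1) read 371, 236 and 349 against 571, 550.2 and 509 (log2 difference -0.80, SE 0.17, adjusted p 0.0199). Neither gene had overlapping groups, and which part of Ldb1 its probe set reads, and so whether it reads the transgene, cannot be told from the files used. Ssbp2, a single-stranded DNA-binding partner that stabilises Clim complexes, fell (-0.44, adjusted p 0.0154). Lmo4, a LIM-only partner in mammary epithelium, read 2332, 2313 and 2135 in TEB and 2071, 1998 and 1886 in duct (0.19, adjusted p 0.232, and 0.0399 with the block). These 3 were the called genes among 16 measured. Ldb1 kept the call under 6 of the 20 alternatives and lost it whichever of the 6 arrays was left out. None of the 3 was called without duct replicate 2 or when the 6 DN-Clim arrays were fitted alone, and 1 was without TEB replicate 3. Of 24 basal stem cell factors, Etv5 rose and Lgr5 and Snai2 fell, and Procr (-0.35), Sox9 (-0.28) and Tspan8 (-0.48) were not called, although Tspan8 was with the block (adjusted p 0.0254).

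Of the remaining groups, epidermal differentiation genes had 3 of 19 higher (Sprr1a, Krt6a and Sprr1b at 1.16) with a median of 0.03. Mucosal and defence genes had 2 of 16 higher, Retnla (0.97) and Lyz1 (0.58), and 2 lower, Cp, ceruloplasmin (-0.75), and Muc20 (-0.70). Imprinted growth genes had 3 of 16 lower, Zim1, Peg3 (-0.72) and Igf2. Peg3 and Zim1, neighbours in one imprinted cluster, read 911, 804 and 1019.6 and 257, 305 and 424 in TEB against 1507, 1710.1 and 1306 and 683, 746 and 767 in duct. Immediate-early and heat shock genes had 1 of 26 higher, Egr2 (0.96, adjusted p 0.036), and 1 lower, Hspb1 (-0.41). Ribosome biogenesis (31 genes, median 0.06), glycolysis and hypoxia (21, 0.07), interferon response and antigen presentation (19, 0.01) and structural noncoding RNAs (10, 0.13) had no called member in limma. With the block, 3 ribosome biogenesis genes and 6 glycolysis genes were higher, and 1 glycolysis gene and 1 noncoding RNA lower. Over all genes the block called 7.11% higher and 12.4% lower. Egr2 was not called without duct replicate 2, TEB replicate 1 or TEB replicate 3, and no imprinted or defence gene without duct replicate 2.

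**Figure D2:**
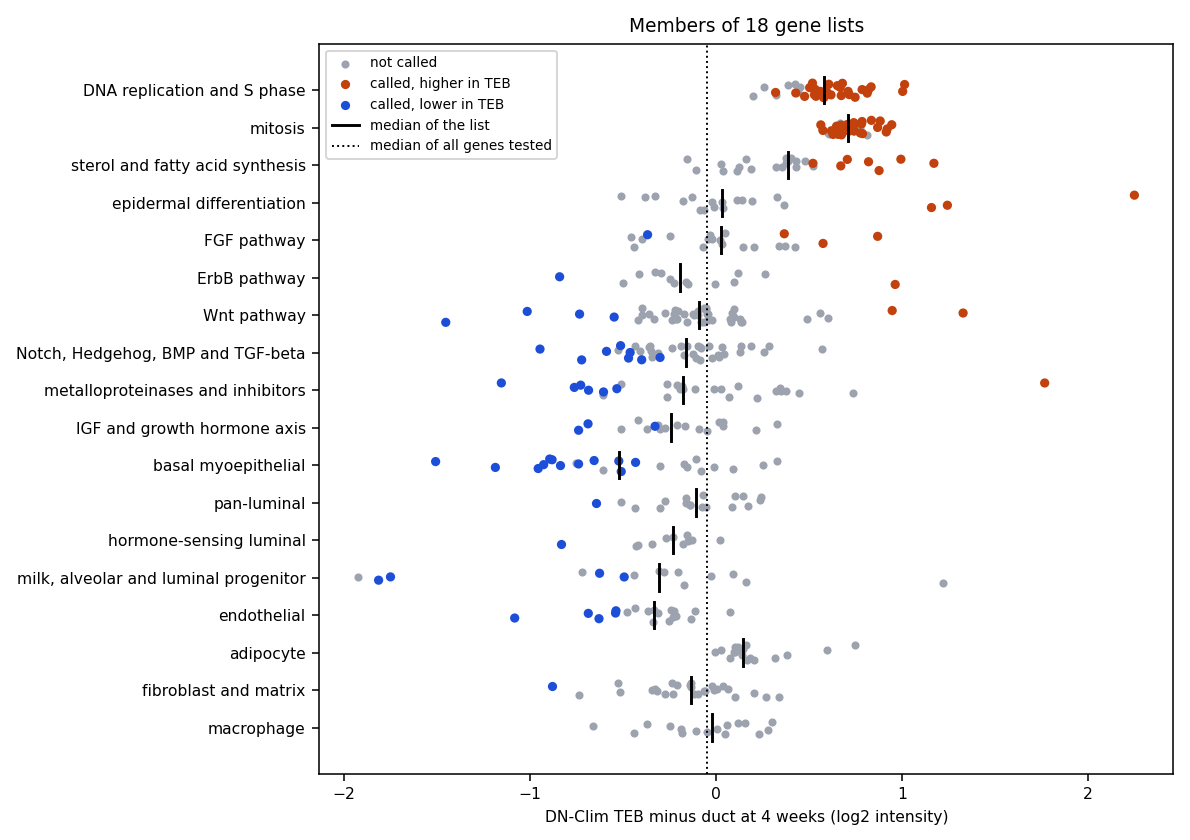
Log2 difference, DN-Clim TEB minus duct at 4 weeks, of every measured member of 18 gene lists (one point a gene; coloured where called in limma), with the median of each list as a bar and the median of all genes as a dotted line. All members of the S phase and mitosis lists lie above 0, and 20 of 23 basal myoepithelial genes lie below it.

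Genes of cells around the epithelium were measured on every array. Endothelial genes were lower in the TEB, 5 of 19 called (Vwf -1.08, Emcn -0.69, Pecam1 -0.63, Ptprb -0.54 and Tek -0.54) and 18 below 0 (median -0.33). Their summed intensity was 10771 to 11511 in TEB and 12355 to 15552 in duct, and the called genes numbered 0 without duct replicate 2, 1 without TEB replicate 3, 2 without TEB replicate 1, 3 without duct replicate 1 or TEB replicate 2, and 8 without duct replicate 3. Adipocyte genes had no called member of 18, with 17 above 0 (median 0.15) and sums of 55219.6 to 57368 in TEB and 48256 to 53035 in duct. Fibroblast and matrix genes had 1 of 27 lower, Eln (-0.88), with sums of 50571 to 69019 in TEB and 64842 to 76595 in duct, which overlapped. The endothelial and adipocyte sums did not overlap. The 6 measured mast cell and eosinophil genes were all below 0 (median -0.62), with sums of 2079 to 2359.7 against 3114 to 3791, and Kit, which luminal cells share, was the 1 called. These sums include Kit, whose values are given with the luminal progenitor genes, so they do not read mast cells alone. Macrophage (16 genes), lymphocyte (11) and skeletal muscle (9) genes had no called member, and of 10 red blood cell genes only Alas2 was measured. With the block 2 adipocyte and 2 skeletal muscle genes were higher and 3 macrophage genes lower, beside 7.11% and 12.4% of all genes. The block also called the endothelial genes Tie1 (adjusted p 0.0118), Egfl7 (0.00777), Aqp1 (0.0198), Cldn5 (0.0446) and Sox17 (0.045) lower. Matrix genes lower with it included Lox (0.00438), Dcn (0.0212), Clec3b (0.0314) and Col14a1 (0.0457). Pdgfrb, the highest of the fibroblast and matrix list (0.34), was not called with it (0.0724). Of 8 Schwann cell and nerve genes Egr2, also an immediate-early gene, was called. The part of these cells in the differences of Mmp2, Mmp3, Ldb2, Sfrp2 and the other genes that stroma or vessels express was not tested.

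Whether TEB and duct also differed in WT mice at 4 weeks was read from 6 other arrays. In WT, 404 genes were higher in TEB (3.02%) and 218 lower (1.63%). Of the 297 genes higher in DN-Clim TEB, 293 had the same sign in WT, where 58.3% of all genes were above 0, and 211 (71%) were called there. Of the 404 lower genes, 392 had the same sign in WT and 146 (36.1%) were called. The 211 shared genes were 52.2% of the WT genes higher in TEB, and the 146 were 67% of those lower. The median difference of the 297 genes was 0.65 in DN-Clim, which chose them, and 0.70 in WT. That of the 404, chosen the same way, was -0.53 and -0.35, a gap that depends on the scaling. Their median difference between genotypes was -0.15 as deposited (340 below 0) and -0.069 to -0.058 under the common scalings (274 to 282 below 0). Across all genes the 2 sets of differences correlated at 0.74 (Pearson's r over genes, which are not independent). The WT count was 221 without WT duct replicate 2, 375 without WT TEB replicate 2 and 178 without WT TEB replicate 3, and 1955 with the block.

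Named genes that were called in WT too included Serpinb11 at 1.46 in WT, Timp1 at 1.06, Wnt5a at 1.19, Etv4 at 1.00, Ltf at -2.47, Oxtr at -1.48, Lgr5 at -1.74 and Krt14 at -1.30. In WT 34 mitosis genes (median 0.94) and 29 S phase genes (median 0.66) were higher, and 13 basal myoepithelial genes (median -0.66) lower. The sterol list had 1 called gene in WT (median 0.28). The difference between the genotypes was tested gene by gene, and limma called none of 13362, with 505 at an unadjusted p under 0.05 (3.78%) and a smallest adjusted p of 0.915. No alternative run called any, the replicate block included (1705 at an unadjusted p under 0.05). The genes with the smallest unadjusted p included Gm5478 (DN-Clim 0.75, WT -0.05, difference 0.79, unadjusted p 0.000721), the small RNA gene Rprl1 (0.27 and -1.38) and Zc3h6 (-0.58 and 0.14). The mitosis genes differed less in DN-Clim than in WT for 34 of 35 (30 to 31 under the common scalings), where 9208 of all 13362 genes lay below 0. The median between genotypes was -0.22 beside -0.08 over all genes, and -0.14 to -0.12 beside 0.0043 to 0.011 under the common scalings, with no mitosis gene at an unadjusted p under 0.05. This was not particular to mitosis. The ErbB list had 14 of 14 genes below 0 (median -0.23, and -0.16 to -0.14 under the common scalings), 1 at an unadjusted p under 0.05. Structural noncoding RNAs had 1 of 10 below 0 (median 0.63), with 4 at an unadjusted p under 0.05 in limma.

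**Figure D3:**
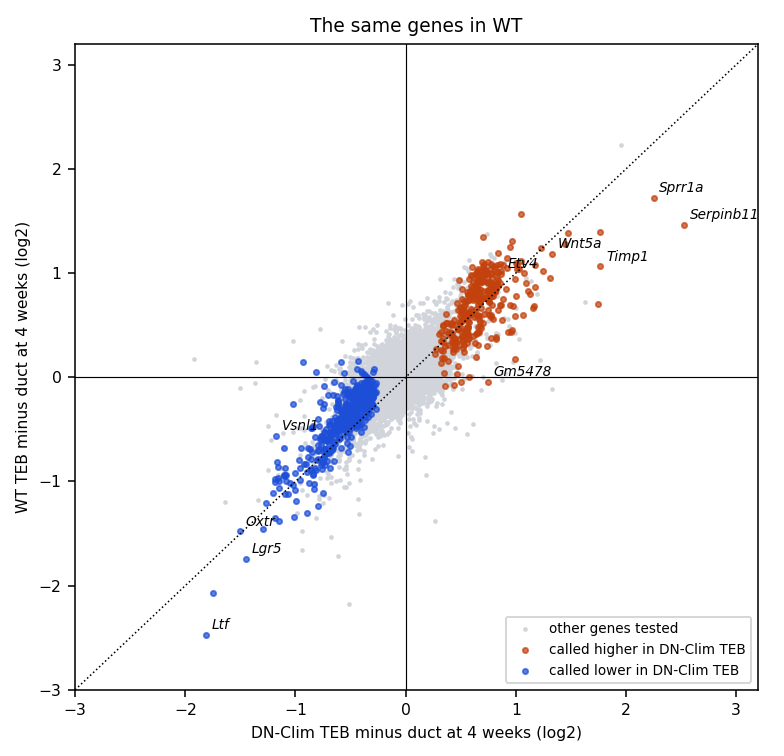
TEB minus duct at 4 weeks in WT (vertical axis, log2) against DN-Clim (horizontal axis, log2), for genes called in DN-Clim (coloured) and the other genes tested (grey), with the line of equal differences dotted. Of the 701 called genes, 293 higher and 392 lower ones lie on the same side of 0 in WT, and Gm5478 does not.

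The contrast at 4 weeks was set beside the later ages of DN-Clim mice, which share no arrays with it. At 6 weeks, 17 of the 297 genes higher in TEB at 4 weeks had the same sign (5.72%, beside 24.2% of all genes above 0), with a median of -0.37 beside -0.11 over all genes. Under the common scalings it was 14.5% to 19.2% beside 48.9% to 52.5%, so the sign of most of these genes was opposite at 6 weeks under each scaling. At 8 weeks 169 (56.9%) and at 10 weeks 195 (65.7%) had the same sign, beside 37.2% and 32.1% of all genes above 0. Etv4 read 311 and 304 in TEB and 460.0 and 426 in duct at 6 weeks, the reverse of 4 weeks. Wnt5a read 1235 and 1361 in TEB and 1465 and 1782 in duct, where its duct level was above that of 4 weeks and its TEB level within or near it. Sprr1a read 839 and 887 in TEB and 1560.0 and 1513 in duct. All 3 genes were higher in both duct arrays than in both TEB arrays at 6 weeks. These 2 TEB arrays had 1.05% and 1.56% of probe set values under 1, against 0.163% to 0.692% on the other 20 DN-Clim captured arrays. At 6 weeks adipocyte genes had a median of 0.43 (17 of 18 above 0) and structural noncoding RNAs -0.68 (0 of 10), and the part of these in the values at 6 weeks was not tested. The mitosis list had 0 of 35 genes above 0 at 6 weeks (median -0.51), 31 at 8 weeks (0.20) and 32 at 10 weeks (0.36), and the S phase list 0, 17 and 22. The mean log2 intensity of the mitosis list at 6 weeks was 8.89 and 8.26 in TEB and 9.15 and 9.02 in duct.

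The genes lower in TEB at 4 weeks had the same sign for 308 of 404 at 6 weeks (76.2%). At 8 weeks 291 (72%) and at 10 weeks 326 (80.7%) did. The shares of the 404 above 0 were 23.8%, 28% and 19.3% at the 3 ages, beside 24.2%, 37.2% and 32.1% of all genes. At 6 weeks their share was therefore about that of all genes. Under the common scalings 48.8% to 51.2% of the 404 were above 0 at 6 weeks, about as for all genes. On those scales 37.1% to 41.6% of the 404 were above 0 at 8 weeks and 28.5% to 30.2% at 10 weeks, beside 46.6% to 51.3% and 49.9% to 53.1% of all genes. For the 297 higher genes the shares above 0 were 63.6% to 65.7% and 79.5% to 82.5%. Lgr5 stood at -1.62, -0.78 and -0.55 at 6, 8 and 10 weeks, Ltf at -0.86, -1.17 and -0.83, and Krt5 at -0.77, -0.39 and -0.37. These 3 were below 0 at each age. Oxtr stood at -0.34, -0.09 and -0.09, and Igfbp5 at 0.04, -0.15 and -0.12, closer to 0 than at 4 weeks. Endothelial genes, lower in the TEB at 4 weeks, had medians of 0.25, 0.20 and 0.15 at the later ages.

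Whether the contrast at 4 weeks differed from the mean of the later ages was tested with the 22 DN-Clim captured arrays. Limma called no gene without a block (1141 at an unadjusted p under 0.05, 8.54%, smallest adjusted p 0.17). With the replicate number as a block, 526 genes (3.94%) had a higher and 511 (3.82%) a lower difference at 4 weeks. Those higher included 26 S phase and 11 mitosis genes, 8 sterol genes and Wnt5a (difference of differences 1.48, adjusted p with the block 0.000181), Timp1 (2.04, 0.000363), Etv4 (0.9, 0.00362) and Gpx2, a glutathione peroxidase (1.08, 0.00538). Those lower included 12 endothelial and 9 basal myoepithelial genes, Slc34a2 (-1.12, 0.00745), Prkg1, a cGMP-dependent kinase of smooth muscle (-0.75, 0.00186), and Nt5e, the CD73 nucleotidase (-0.78, 0.00362). Against 6 weeks alone, a comparison chosen after these values were seen, no gene was called without the block (1171 at an unadjusted p under 0.05, 8.76%), and 641 (4.8%) were higher and 247 (1.85%) lower with it. Leaving out 1 array in turn gave 0 to 15 genes without the block, the 15 without TEB replicate 3 of 8 weeks and 7 without TEB replicate 1 of 6 weeks.

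**Figure D4:**
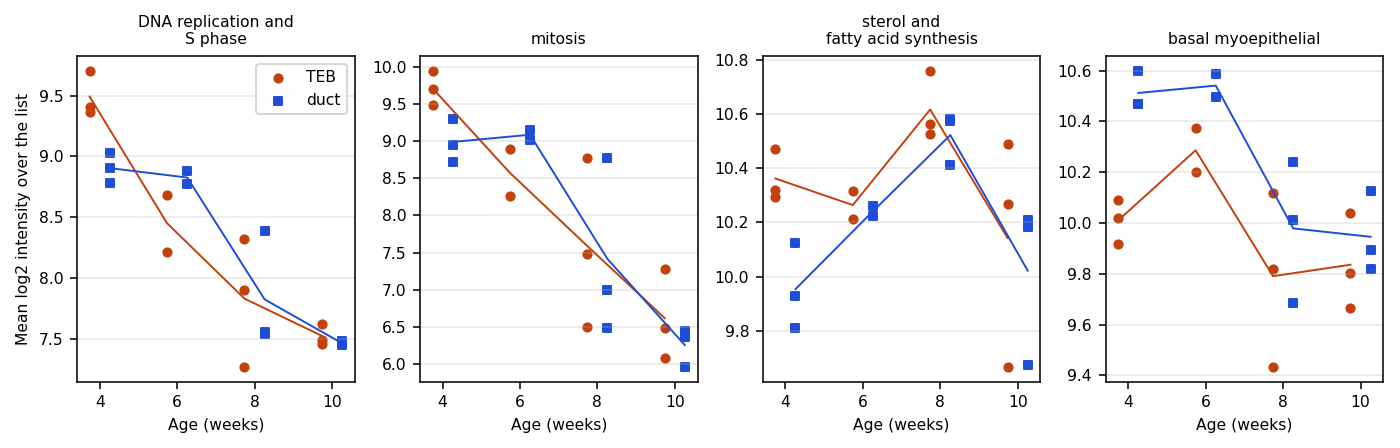
Mean log2 intensity over the measured members of 4 gene lists in each DN-Clim array (points) by age in weeks, TEB (circles) and duct (squares), with lines through the mean of each age and a vertical scale of its own for each list. The S phase and mitosis means are higher in every TEB array than in every duct array at 4 weeks and the other way round at 6 weeks.

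Basal and luminal cells sorted from DN-Clim glands at 10 weeks gave values for each layer, in other samples and at another age. The titles of the luminal arrays name the CD29hi gate and their descriptions CD29lo, and they were taken as luminal, with Krt8 higher in luminal cells (basal minus luminal -1.44) and Krt5 higher in basal cells (6.50). Of the genes lower in TEB, 381 were measured, and 136 (35.7%) were higher in basal cells and 64 (16.8%) in luminal cells, beside 12.8% and 17.5% of all 12045 genes measured in both experiments. Of the genes higher in TEB, 270 were measured, and 38 (14.1%) were higher in basal and 16 (5.93%) in luminal cells. Oxtr (4.82), Cnn1 (7.40), Lgr5 (5.57) and Kctd4 (6.01) were basal among the genes lower in TEB, and Ltf (-4.40), Nrxn3 (-4.73) and Clic6 (-3.11) luminal. Among the genes higher in TEB, Serpinb11 (7.22), Nrg1 (6.31), Vcan (5.57) and Sema3b (4.01) were basal, Aim2 (-4.33), Krt6a (-4.25) and Sprr1a (-2.83) luminal, and Wnt5a (-1.44), Timp1 (0.09) and Etv4 (1.68) were called in neither direction. With 2 arrays of each cell type these shares describe the genes and carry no test of overlap.

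**Figure D5:**
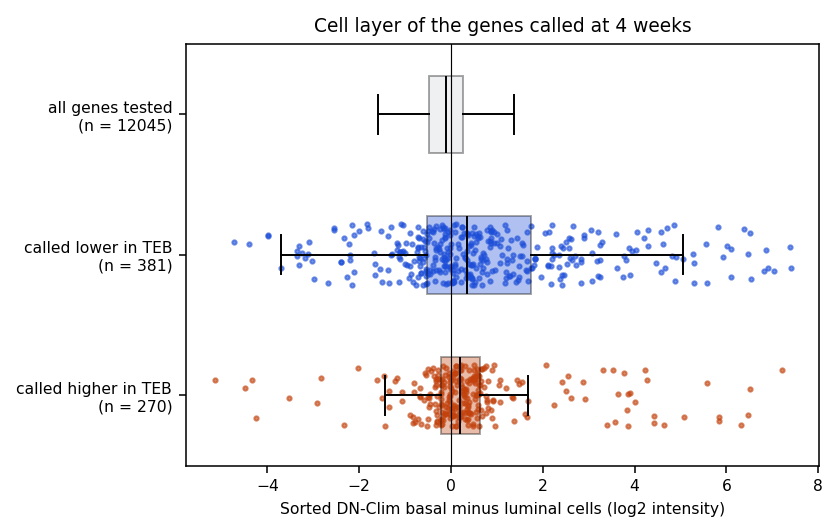
Sorted DN-Clim basal minus luminal cells (log2 intensity) for genes called higher (270) and lower (381) in DN-Clim TEB at 4 weeks and for all 12045 genes measured in both experiments; boxes span the quartiles with the median as a bar, whiskers reach up to 1.5 box lengths, and points are genes, not drawn for all genes. The medians are 0.20, 0.35 and -0.10, and the box of the genes lower in TEB extends furthest to the basal side.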

How the data were processed

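Affymetrix Mouse Gene 1.0 ST arrays were hybridised with RNA of laser-captured TEBs and ducts (42 arrays) and of sorted cells (8 arrays). The authors summarised each probe set with PLIER (version not given in the sources used here) and deposited linear intensity values. For their own analysis they took logs and set the mean to 0 and the variance to 1; whether by array or by gene is not stated. That step is not in the deposited values, was run here by array as an alternative, and matters because a scale left between arrays shifts all genes of an array together. No depth exists for arrays, so their number limits the precision.

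Of 35557 probe sets, 21789 carried 1 gene symbol, 1621 several and 12147 none. Intensities were floored at 1 and log2-transformed, and probe sets at 200 or more on at least 1 laser capture array (150 for sorted cells) were kept, which left 22693. The probe set with the highest mean stood for a gene, giving 13362 genes (12471 in sorted cells). Groups followed the labels. limma 3.58.1 (R 4.3.3, lmFit and eBayes with a variance trend) was fitted to the 12 arrays of 4 weeks for the TEB and duct contrasts and the genotype difference, to the 22 DN-Clim captured arrays for ages, and to the 8 sorted arrays, with Benjamini-Hochberg adjustment over all genes and a threshold of 0.05. The code was tested on simulated data. P-values weigh a difference against the spread between these arrays within groups, and with the block against the spread left after it.

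Same-numbered TEB and duct arrays deviated together from their group means (correlations of 0.43 to 0.65 over 6 pairs at 4 weeks, and 0.51 to 0.84 over 8 later DN-Clim pairs). Other-numbered arrays gave -0.57 to -0.02. Deviations within a group sum to 0, so positive values for same-numbered arrays push the others below 0. At 6 weeks, with 2 arrays of each structure, both pairs hold the same value (0.58). What same-numbered arrays have in common, a mouse or a processing step, was not tested. The numbers were taken to pair the arrays on the positive values. This pairing came from the data, not from the labels.

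The genes named were the 12 largest increases and 12 largest decreases among called genes whose groups did not overlap, the 5 genes in each direction with the smallest p for the genotype and age differences, up to 5 members of each list by moderated t, all called Wnt, FGF, ErbB and Clim members, and 13 fixed genes. Other list members are named as examples, chosen after their values were seen. The 34 lists held 806 genes, 672 of them measured. The members and lists were chosen with earlier results of these data known. Promoter windows came from RefSeq (GRCm38.p6). Alternatives were other sets of arrays, the replicate number as a block, other filters and scalings, Cyber-T, and each array left out.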

Additional observations from a re-analysis of the deposited data

Results flagged for a closer look

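The DN-Clim contrast between TEB and duct differed between ages when the difference was tested with the replicate number as a block: 1037 genes had a contrast at 4 weeks that differed from the mean of 6, 8 and 10 weeks in limma, 526 with a higher and 511 with a lower value at 4 weeks. Without the block no gene passed, and 1141 had an unadjusted p under 0.05. Other filters, scalings and arrays left out were run for this difference without the block only, so the 1037 was not tried against them. The mean of the later ages includes 6 weeks, where the mitosis list had a median of -0.51, against 0.20 at 8 weeks and 0.36 at 10 weeks. Litter and age cannot be told apart in these mice.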

How the results depend on the processing

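The 701 genes called in DN-Clim TEB against duct at 4 weeks became 259 when the 6 DN-Clim arrays were fitted alone, 102 when all 42 captured arrays set the spread, and 447 by an unadjusted p under 0.01 with a 1.5-fold change. Leaving out 1 array at a time gave 69 to 628 genes, the fewest without duct replicate 2 and then TEB replicate 3 (115). The 622 WT genes became 100 with all 42 arrays and 178 to 521 with 1 array left out. The other filters, scalings and summaries kept both counts within 1.5 times, as did Cyber-T for the DN-Clim count, the one it was run on. Of 105 named genes called, 10 stayed called under all 20 alternatives (Clic6, Erbb4, Etv4, Igfbp5, Krt14, Oxtr, Sema3b, Sfrp2, Timp1 and Wnt5a), and none changed direction. The cause of these changes was not tested.

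With the replicate number as a block, to which the pairing applies, the DN-Clim count rose to 2609 and the WT count to 1955, or 2684 and 1938 as a random block. The difference between ages rose from 0 to 1037 genes, and that between 4 and 6 weeks, chosen after seeing the data, from 0 to 888. Scalings and arrays left out were not run together with the block. The difference between genotypes stayed at 0. The 3 arrays a group, and 2 at 6 weeks, limit what the tests can show.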
